A study of Rattus norvegicus with 18 samples.

Results

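The genes described here are 10 components and targets of bone morphogenetic protein (BMP) signaling in the rat dorsal hippocampus, of 38445 genes counted by RNA sequencing. They are the type II receptor Bmpr2, the receptor-activated Smad1, Smad5 and Smad9, the inhibitory Smad6 and Smad7, and the 4 inhibitor of differentiation genes Id1, Id2, Id3 and Id4, each taken by its symbol. They were selected on their normalized levels by treatment, with earlier results of these data known. The differences of these genes between treatments are therefore given as a description. Where a threshold on q or p is named for them, it describes the fit and is not a test of these genes. All rats were adult male wild-type Sprague Dawley rats that lived on a Lieber-DeCarli liquid diet. The control group (6 rats) had the diet without ethanol. The ethanol group (6 rats) was brought up gradually to a diet with 9% (v/v) ethanol, stayed on it for 16 days and was killed without withdrawal. The withdrawal group (6 rats) had the 9% diet for 15 days and then the control diet for 24 h. Each library came from the dissected hippocampus of 1 rat, so a level is an average over all cells of the piece, and more cells of a type cannot be told apart from more RNA per cell. The question was how each gene stood after chronic ethanol and again a day after ethanol was removed.

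BMP ligands bind a complex of type I and type II receptors, and the type I receptor then phosphorylates SMAD1, SMAD5 and SMAD9. These join SMAD4 in the nucleus and switch on target genes, among which the Id genes are the best known. SMAD6 and SMAD7 are targets that act back on the receptors and damp the pathway. ID proteins lack a DNA-binding region and hold basic helix-loop-helix (bHLH) transcription factors away from DNA, and in the hippocampus BMP signaling is known for restraining the division of neural stem cells and for favoring glial over neuronal fates.

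The sequences just before the start of transcription are shown for Id1 and Id3, which were lower in each of 6 withdrawal rats than in every ethanol rat, for Id2 and Id4, whose groups overlapped in each comparison, and for Smad7, which was above all control rats in withdrawal. Each is the 250 bases before the annotated start, read 5′ to 3′ on the gene's strand from the RefSeq promoter table of build GRCr8, with GGCGCC (its own reverse complement, a GC-rich element known to bind BMP-activated SMADs) and TATAAA (the TATA box, searched on both strands) in capitals. The windows lie at chr3:161671314-161671563 on the plus strand (Id1), chr5:153656041-153656290 on the plus strand (Id3), chr6:47470996-47471245 on the minus strand (Id2), chr17:16598294-16598543 on the minus strand (Id4) and chr18:71263258-71263507 on the plus strand (Smad7).
Id1: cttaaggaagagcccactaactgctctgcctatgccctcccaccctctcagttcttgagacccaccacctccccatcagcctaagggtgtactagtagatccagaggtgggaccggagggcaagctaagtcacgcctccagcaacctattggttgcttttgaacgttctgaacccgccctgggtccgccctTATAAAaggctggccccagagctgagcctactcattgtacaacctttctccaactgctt
Id3: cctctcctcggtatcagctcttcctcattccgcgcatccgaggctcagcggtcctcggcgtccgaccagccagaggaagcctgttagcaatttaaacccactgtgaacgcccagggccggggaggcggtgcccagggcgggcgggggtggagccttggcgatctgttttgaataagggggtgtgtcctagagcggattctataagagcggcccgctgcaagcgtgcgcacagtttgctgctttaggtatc
Id2: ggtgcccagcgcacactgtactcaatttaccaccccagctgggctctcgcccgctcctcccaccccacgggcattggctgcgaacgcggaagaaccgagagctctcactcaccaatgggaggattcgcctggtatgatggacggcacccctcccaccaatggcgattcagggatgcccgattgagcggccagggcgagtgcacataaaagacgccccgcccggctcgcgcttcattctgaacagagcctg
Id4: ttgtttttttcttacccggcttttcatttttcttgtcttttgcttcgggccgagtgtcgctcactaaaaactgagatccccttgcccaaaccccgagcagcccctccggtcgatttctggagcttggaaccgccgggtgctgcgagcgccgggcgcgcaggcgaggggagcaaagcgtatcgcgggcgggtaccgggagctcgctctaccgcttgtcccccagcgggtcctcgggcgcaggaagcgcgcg
Smad7: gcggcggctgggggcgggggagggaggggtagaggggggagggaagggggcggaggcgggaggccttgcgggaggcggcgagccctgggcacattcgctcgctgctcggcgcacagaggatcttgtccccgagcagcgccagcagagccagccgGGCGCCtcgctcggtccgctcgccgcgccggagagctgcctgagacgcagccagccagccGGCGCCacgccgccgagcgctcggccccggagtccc
Of the 10 genes, 9 had an entry in the table and Smad6 had none. GGCGCC was found in 2 copies in Smad7 and 1 copy in Smad9 and in none of the other 7 windows, against 8.69% of all 33469 promoter windows of the same length. The Smad7 window was also the richest in G and C of the 9, at 78.0%, and the Id1 window had 54.8%. TATAAA was found only in Id1 among the 9, and in 12.9% of all windows. The 4-base SMAD element GTCT, or AGAC on the other strand, stood in 84.0% of all windows and tells the genes apart little. It was absent from the windows of Id3, Smad1 and Bmpr2, had 3 copies in Smad5 and 2 in Smad9, and 1 copy in each of the other 4. The elements searched do not overlap in these windows. The known BMP-responsive elements of Id1 lie further upstream than these windows reach.

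The deposited values are raw counts of read pairs on exons. Totals on genes ran from 30873228 to 42679748 per rat. Levels are given in CPM (counts per 1000000 counts, scaled by the TMM method of edgeR). The genes of the Rnor_6.0 annotation covered chr19:32182942-32248694 (Smad1), chr17:8307448-8336996 (Smad5), chr8:68897746-68967221 (Smad6), chr18:71395830-71424164 (Smad7), chr2:143951725-144002025 (Smad9), chr3:148214623-148216715 (Id1), chr6:44360077-44361908 (Id2), chr5:154489603-154491172 (Id3), chr17:16692557-16695126 (Id4) and chr9:66568074-66683019 (Bmpr2), with counts taken over their exons. Smad9 was the only member overlapped by another gene, which lies on the opposite strand, and the counting used strand. The RNA integrity number was above 8.0 in all rats according to the labels. Neuronal markers were present in all rats, with a summed level of 10 markers between 5242 and 8473 CPM.

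Libraries stood apart in choroid plexus. The summed level of 10 choroid plexus markers, a tissue that lies against the hippocampus, was between 1192 and 2486 CPM in control rats, between 1617 and 5748 CPM in ethanol rats and between 31.8 and 5808 CPM in withdrawal rats. Withdrawal rats 4 and 5 had 31.8 and 35.1 CPM, with the defining marker Ttr down to 20.3 CPM, while withdrawal rat 6 and ethanol rats 1, 4 and 6 had 5808, 5748, 3931 and 5426 CPM. The marker Otx2 was at 0 in all control rats and at most 0.057 CPM elsewhere. By limma-voom 0 of the 9 choroid plexus markers tested passed q < 0.1 in ethanol vs control, withdrawal vs control and withdrawal vs ethanol, with 3, 2 and 6 at an unadjusted p under 0.05, 0 by edgeR in each and 0, 1 and 0 by DESeq2. Of these markers 8 were higher in ethanol than in control and 0 of the 9 were higher in withdrawal than in ethanol. Endothelial markers had a summed level of 301 to 382 CPM in control, 328 to 386 CPM in ethanol and 326 to 416 CPM in withdrawal. Of the 10, 0 passed between ethanol and control by limma-voom (4 at an unadjusted p under 0.05, 0 by edgeR and 1 by DESeq2) and 5 rose between withdrawal and control (Pecam1, Flt1, Kdr, Esam and Emcn).

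The 10 genes spanned a wide range of levels per length. In control rats the level per kilobase of exon was 71.7 ± 4.77 CPM per kb (SD, n = 6) for Id2, the highest, and 44.0 ± 2.73 CPM per kb for Id3. Bmpr2 and Id4 came next at 30.6 ± 0.616 and 29.8 ± 1.85 CPM per kb and did not differ beyond their spread. Smad5 (8.29 ± 0.298), Smad7 (7.63 ± 0.394) and Id1 (6.38 ± 0.971 CPM per kb) formed a group in which each neighbor overlapped the next over the rats. Smad1 followed at 2.88 ± 0.111 CPM per kb and Smad6 at 0.804 ± 0.0938 CPM per kb. In ethanol rats Id1 stood at 8.74 ± 0.501 CPM per kb, above the means of Smad5 (8.20) and Smad7 (8.04 CPM per kb), and in withdrawal rats it stood at 6.86 ± 0.805 CPM per kb, below both.

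**Figure D1:**
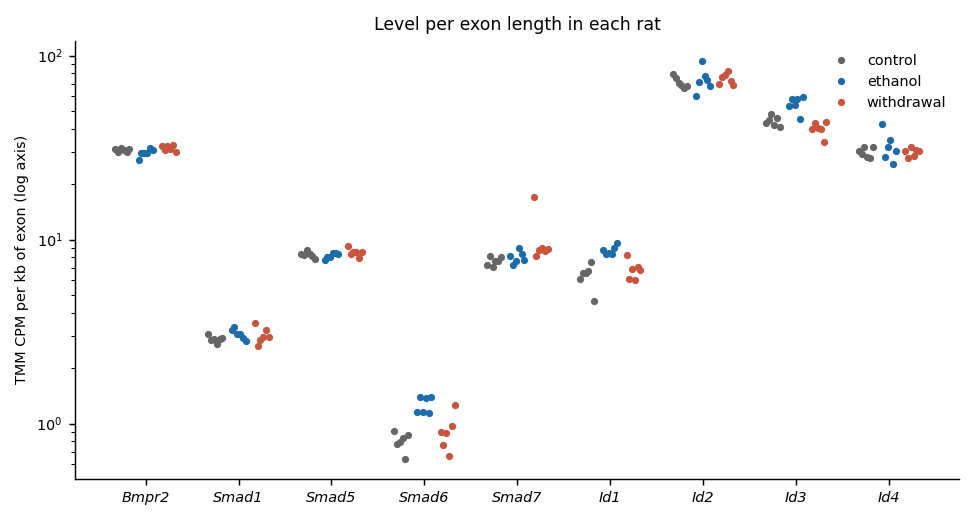
Level per kilobase of exon (TMM CPM per kb, log axis) of 9 genes, each point 1 rat and each color a group. Id2 lies near 72 CPM per kb in control rats and Smad6 near 0.8, and the spread within a gene is small against the distance between most genes. Smad9, which was close to 0, is not drawn.

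Smad9 was all but absent from the counts. It had between 0 and 4 read pairs per rat and 12, 8 and 10 read pairs in all over the control, ethanol and withdrawal groups, or 0.0559 ± 0.0414, 0.0365 ± 0.0408 and 0.0425 ± 0.0392 CPM (SD, n = 6). It did not pass the filter of more than 0.5 CPM in at least 1 rat, so no fold change is given. Of the 3 receptor-activated Smads of the BMP branch, the counts thus lay in Smad5 and Smad1.

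Ethanol was accompanied by higher levels of Smad6, Id1 and Id3, and all 3 stood lower again a day into withdrawal. Relative to control, the mean CPM in ethanol was higher by 57.7% for Smad6, 37.0% for Id1 and 24.5% for Id3. The other 6 genes with a fitted value had differences of mean CPM between -3.42% (Bmpr2) and 8.29% (Id4) in the same comparison, and fitted log2 fold changes between -0.02 and 0.11. For Id4 (-0.02) and Smad5 (0.01) the fitted sign was opposite to that of the means. Of the 9, 2 (Smad6 and Id1) were under q < 0.1 by limma-voom with 3 surrogate variables, where 0.493% of the 17853 genes tested were. These genes were selected on such values and nothing is read from that count.

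Smad6, which blocks BMP type I receptors and SMAD1 and is itself a target of the pathway, was a low gene. Its lowest, median and highest levels were 1.95, 2.47 and 2.78 CPM in control rats, 3.46, 3.85 and 4.22 CPM in ethanol rats and 2.01, 2.71 and 3.83 CPM in withdrawal rats. All 6 ethanol rats lay above all 6 control rats. In withdrawal 5 of 6 rats lay below all ethanol rats, and withdrawal rat 6 at 3.83 CPM lay among them. These levels rest on 71 to 95 read pairs per control rat and 113 to 169 per ethanol rat. The means were 2.44 ± 0.285, 3.85 ± 0.389 and 2.76 ± 0.622 CPM (SD, n = 6 each). The log2 fold change was 0.61 (SE 0.13) for ethanol vs control, 0.21 (SE 0.13) for withdrawal vs control and -0.40 (SE 0.13) for withdrawal vs ethanol.

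Id1, the target most often used to read BMP activity, is expressed in vessels and astrocytes among other cells. It ranged over 8.72, 12.4 and 14.2 CPM (lowest, median, highest) in control rats, 15.6, 16.1 and 18.1 CPM in ethanol rats and 11.4, 12.8 and 15.5 CPM in withdrawal rats. The ethanol rats lay above every control rat and above every withdrawal rat, although withdrawal rat 1 at 15.5 CPM fell just short of the lowest ethanol rat at 15.6 CPM. The ethanol group was also the tightest, with a coefficient of variation of 5.73% against 15.2% in control. The means were 11.97 ± 1.82, 16.4 ± 0.939 and 12.9 ± 1.51 CPM. The log2 fold change was 0.49 (SE 0.10) for ethanol vs control, 0.11 (SE 0.10) for withdrawal vs control and -0.38 (SE 0.11) for withdrawal vs ethanol.

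Id3 shares with Id1 a role in keeping progenitor and endothelial cells undifferentiated. Its lowest, median and highest levels were 38.5, 41.2 and 45.4 CPM in control, 42.6, 52.7 and 56.4 CPM in ethanol and 31.9, 38.0 and 40.9 CPM in withdrawal. Of the ethanol rats, 5 lay above all control rats, and ethanol rat 5 at 42.6 CPM lay within the control range. All 6 withdrawal rats lay below all ethanol rats, and 4 of them lay below all control rats. The means were 41.4 ± 2.57, 51.6 ± 5.06 and 37.8 ± 3.22 CPM. The log2 fold change was 0.29 (SE 0.07) for ethanol vs control, -0.10 (SE 0.07) for withdrawal vs control and -0.39 (SE 0.07) for withdrawal vs ethanol.

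**Figure D2:**
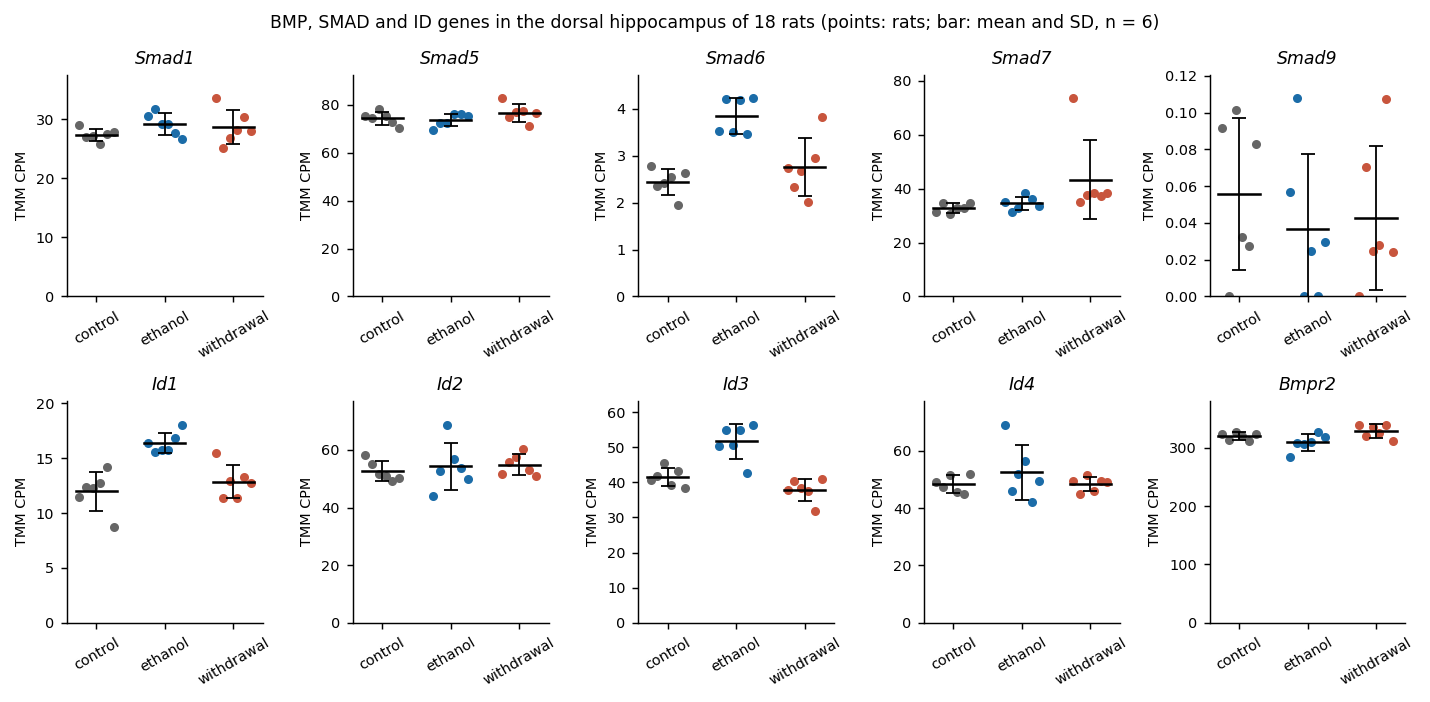
TMM-normalized CPM of the 10 genes in each rat, by group, with the mean and SD (n = 6) as bars. The axes start at 0, which cuts the lower bar of Smad9. The ethanol rats of Smad6 and Id1 lie above all control rats, the withdrawal rats of Id1 and Id3 lie below all ethanol rats, and 1 withdrawal rat of Smad7 lies at 73.6 CPM.

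Smad7, which recruits ubiquitin ligases to BMP and TGF-beta receptors, had its highest mean in withdrawal. Its lowest, median and highest levels were 30.5, 32.9 and 34.8 CPM in control, 31.4, 34.3 and 38.5 CPM in ethanol and 35.1, 38.0 and 73.6 CPM in withdrawal. All 6 withdrawal rats lay above all control rats, the lowest at 35.1 CPM against a highest control of 34.8 CPM. Withdrawal rat 1 stood alone at 73.6 CPM and the other 5 lay between 35.1 and 38.6 CPM. The mean was 43.4 ± 14.8 CPM (SD, n = 6) with that rat and 37.4 ± 1.41 CPM (SD, n = 5) without it. The log2 fold change for withdrawal vs control was 0.35 (SE 0.13). It was 0.18 with withdrawal rat 1 left out of the model and 0.12 with withdrawal rats 4 and 5 left out. Without withdrawal rat 1 Smad7 was under q < 0.1 in this comparison, as it was without withdrawal rat 2, and in the full model it was not. Nothing is read from these calls.

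Id2 and Id4, which restrain neuronal and glial bHLH factors, were similar in mean but more spread in ethanol. Id2 was 52.5 ± 3.49, 54.3 ± 8.27 and 54.8 ± 3.62 CPM in control, ethanol and withdrawal. Id4 was 48.4 ± 3.01, 52.4 ± 9.52 and 48.4 ± 2.49 CPM. The highest ethanol values came from different rats, with ethanol rat 3 at 68.8 CPM for Id2 and ethanol rat 1 at 69.1 CPM for Id4. The coefficient of variation in ethanol was 15.2% for Id2 and 18.2% for Id4, against 6.65% and 6.23% in control. Ethanol rat 1 also had the most signal of 8 thalamic markers, a neighboring region, with a sum of 1805 CPM against 337 to 1050 CPM in the other 17 rats, and over the 18 rats Id4 followed these markers (r = 0.90, treatment means removed). The part of tissue beyond the hippocampus in the level of Id4 was not tested. The groups overlapped in all 3 comparisons for both genes. The log2 fold changes for withdrawal vs ethanol were -0.38 (Id1), -0.39 (Id3), -0.07 (Id2) and 0.02 (Id4), and differences between these genes were not tested. The fitted values of Id2 and Id4 had the opposite sign to their differences of mean CPM, which were 1.02% and -7.64%.

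The signal-carrying members differed little between groups. Bmpr2, the type II receptor for most BMPs, was 320 ± 6.43, 309 ± 14.7 and 328 ± 11.3 CPM in control, ethanol and withdrawal. Smad5 was 74.4 ± 2.68, 73.6 ± 2.61 and 76.6 ± 3.71 CPM. Smad1 was 27.4 ± 1.06, 29.2 ± 1.86 and 28.7 ± 2.96 CPM. All 9 log2 fold changes of these 3 genes were within 0.10 of 0, with SE between 0.03 and 0.05, and their groups overlapped in each comparison.

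**Figure D3:**
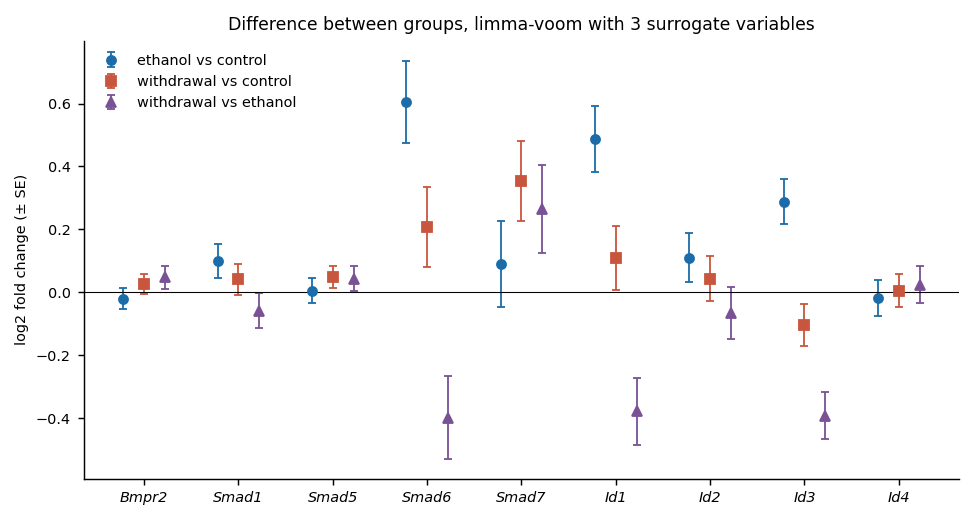
Log2 fold change with SE of 9 genes in the 3 comparisons, from limma-voom with 3 surrogate variables in 1 model of 18 rats. Smad6, Id1 and Id3 are positive for ethanol vs control and negative for withdrawal vs ethanol, and Smad7 is highest for withdrawal vs control at 0.35. The comparisons share groups, so the points of a gene are not independent.

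The counts of members are given for the other comparisons as a description, since the comparisons share groups. In withdrawal vs control 0 of the 9 were under q < 0.1 by limma-voom, where 5.41% of all genes tested were; 1 was at an unadjusted p under 0.05, edgeR called 0 and DESeq2 called 1 (Smad7). In withdrawal vs ethanol 2 were (Id1 and Id3, both lower), against 2.72% of all genes. Counted by rats that do not overlap, 2 of 9 genes (Smad6 and Id1) were separated between ethanol and control, 1 (Smad7) between withdrawal and control and 2 (Id1 and Id3) between withdrawal and ethanol. Over all genes tested such separation was found in 1.32%, 1.06% and 1.22%. The median log2 fold change of the 9 was 0.10 for ethanol vs control, 0.04 for withdrawal vs control and -0.06 for withdrawal vs ethanol, and that of all genes tested was 0.00 in each.

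Whether a member fell under the threshold depended on the processing and on single rats. The genes were selected on such values, so the counts below describe the fits and nothing more is read from them. Over alternative settings other than leaving out single rats, Smad6 was under it in 8 and Id1 in 10 of 13 for ethanol vs control, and Id3 in 11 and Id1 in 8 of 14 for withdrawal vs ethanol. In ethanol vs control 0 members were under it by limma-voom without the filter on low counts, in a model of only the 2 groups and with the replicate number as a block. In withdrawal vs ethanol 0 were in a model of only the 2 groups, with the block and with the index set as a term. With a single rat removed at a time, giving 18 models, Id1 was under it in 8 and Smad6 in 9 for ethanol vs control. Both were under it without control rat 5, ethanol rat 1, 4 or 5 or withdrawal rat 1, 2, 4 or 5, and Smad6 also without withdrawal rat 6. For withdrawal vs ethanol Id3 was under it in 15 and Id1 in 6 of the 18. Both were above it without ethanol rat 2, ethanol rat 3 or withdrawal rat 6, and Id1 was under it without control rat 5 or 6, ethanol rat 5 or withdrawal rat 1, 4 or 5. The fold changes of Smad6, Id1 and Id3 kept their sign over these 18 models. In ethanol vs control they ran from 0.55 to 0.65 for Smad6, 0.37 to 0.55 for Id1 and 0.24 to 0.40 for Id3. In withdrawal vs ethanol they ran from -0.60 to -0.32 for Smad6, -0.43 to -0.33 for Id1 and -0.50 to -0.33 for Id3. In withdrawal vs control that of Smad6 ran from 0.06 to 0.28. Over the other settings the fold change of Id1 for withdrawal vs control kept its sign in 11 of 13. Some ranges were wider there, with Smad6 up to 0.68 in ethanol vs control and Id1 down to -0.46 in withdrawal vs ethanol.

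The libraries were tagged with 3 sets of index sequences. All 6 control rats had the first set, the 6 ethanol rats and withdrawal rats 1 and 2 had the second, and withdrawal rats 3 to 6 had the third. A difference from control cannot be told apart from the index set. Within the second set, the 2 withdrawal rats were lower than the 6 ethanol rats by a mean log2 CPM of -0.59 for Smad6, -0.30 for Id1 and -0.40 for Id3. The 4 withdrawal rats of the third set differed from ethanol by -0.45, -0.38 and -0.47. With the index set as a term in the model, 0 of the 17853 genes passed between withdrawal and ethanol by limma-voom, the only tool run with that term, and 2053 were at an unadjusted p under 0.05.

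Choroid plexus level was set beside these genes because it differed between libraries. The 3 ethanol rats within the control range of choroid plexus markers (rats 2, 3 and 5) had 3.46 to 4.20 CPM of Smad6 and 15.6, 15.8 and 16.8 CPM of Id1, all above the highest control rat. The same rats had 54.9, 50.5 and 42.6 CPM of Id3. Withdrawal rat 6, with the most choroid plexus signal, had 40.9 CPM of Id3 and 12.8 CPM of Id1, below every ethanol rat. Its Smad6, at 3.83 CPM, was the highest of the withdrawal rats and lay among the ethanol rats. With the choroid plexus level added to the model the log2 fold change for ethanol vs control was 0.60 for Smad6 and 0.46 for Id1. For withdrawal vs ethanol it was -0.37 for Smad6, -0.36 for Id1 and -0.38 for Id3. With that term 1 of the 9 members (Id1, not Smad6) was under q < 0.1 in ethanol vs control and 2 (Id1 and Id3) in withdrawal vs ethanol, and as before nothing is read from these counts. With withdrawal rats 4 and 5 left out, the log2 fold changes for withdrawal vs ethanol were -0.40 for Smad6, -0.46 for Id1 and -0.32 for Id3. Apart from these values, the part of choroid plexus tissue in the differences was not tested, nor was that of endothelial cells. Over the 18 rats with treatment means removed, Pearson's r with the endothelial marker level was 0.48 for Smad6, -0.22 for Id1 and -0.11 for Id3, and with the choroid plexus level 0.43, 0.14 and 0.48. Of the 10 marker lists the one with the strongest r was fibroblast and meningeal markers for Smad6 (0.59), oligodendrocyte precursor markers for Id1 (-0.60) and choroid plexus markers for Id3. These points share libraries and depth.

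**Figure D4:**
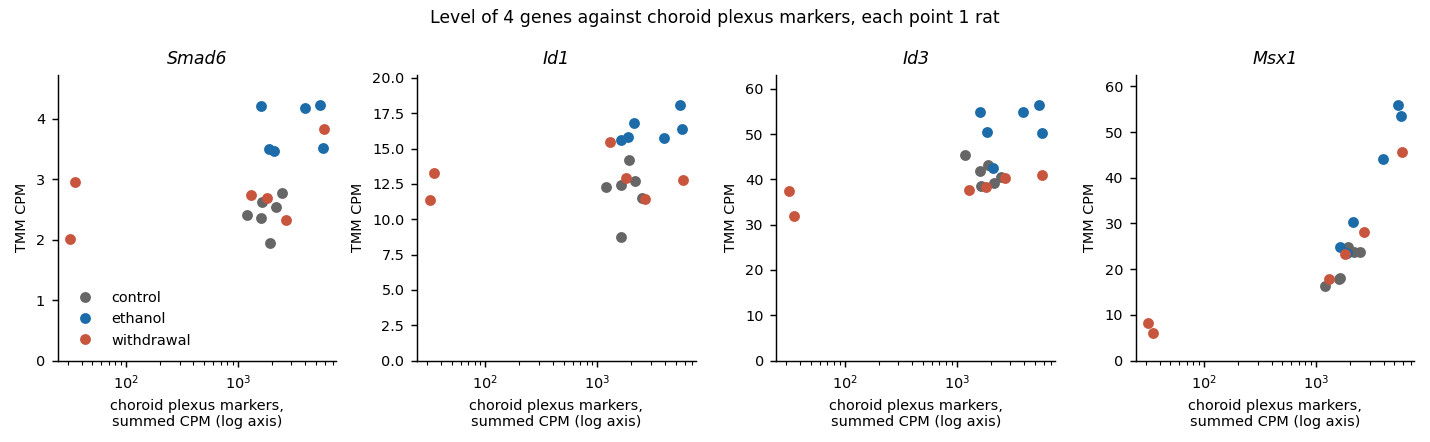
CPM of Smad6, Id1, Id3 and Msx1 (vertical axes, from 0) against the summed CPM of 10 choroid plexus markers (log axis), each point 1 rat and each color a group. Msx1 rises with the marker level across rats of all groups, from 6.02 to 55.9 CPM. The ethanol rats of Id1 lie between 15.6 and 18.1 CPM, and the 2 withdrawal rats with the lowest marker levels at 11.4 and 13.3 CPM.

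The 9 genes did not vary as a block from rat to rat. With treatment means removed, r over the 36 pairs of genes ran from -0.46 (Id4 and Bmpr2) to 0.58 (Smad1 and Smad7), with a median of 0.08, over 18 rats that share library preparation. Id1 and Id3 had r = 0.11. The genes whose pattern over the 18 rats was most like that of Id3 were Nek8, Pold1 and Alg10 (r = 0.80, 0.79 and 0.78), and those most like Id1 were Rassf1, Arih2 and Dcxr (r = 0.76, 0.73 and 0.73). For Smad6 they were Rin2, Reln and Pirt (r = 0.88, 0.83 and 0.81). For Smad7 they were Nptx2, Bcor and Rbpj (r = 0.93 for each), and without withdrawal rat 1 these fell to 0.32, 0.29 and 0.09. In that rat Nptx2, a synaptic pentraxin, was at 242 CPM against 36.03 to 53.0 CPM in the other 17, and Rbpj, the transcription factor of Notch signaling, was at 110 CPM against 52.1 to 64.2 CPM.

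Of 125 other genes of the pathway, in lists from ligands to bHLH partners, 115 passed the filter and were tested. In ethanol vs control 3 rose and 0 fell (2.61% of the 115, against 0.493% of all genes), in withdrawal vs control 9 rose and 2 fell (9.57% against 5.41%), and in withdrawal vs ethanol 1 rose and 1 fell (1.74% against 2.72%). The median log2 fold change of the 115 was 0.03, 0.05 and 0.01. These counts rest on single rats in places. In ethanol vs control the count was 0 without control rat 1, 3, 4 or 6 or ethanol rat 3, 1 without ethanol rat 6 or withdrawal rat 6, and 6 without ethanol rat 5 or withdrawal rat 5. In withdrawal vs control the 11 genes became 0 without withdrawal rat 6 and also 0 without withdrawal rats 4 and 5 together, 5 without control rat 4, 6 without control rat 1, 3 or 5, and 7 without control rat 2, ethanol rat 6 or withdrawal rat 1. In withdrawal vs ethanol the 2 genes became 0 without ethanol rat 2 or 3 or withdrawal rat 6, 1 without control rat 1, 3 or 4, ethanol rat 1, 4 or 6 or withdrawal rat 3, 4 without withdrawal rat 1, 7 without withdrawal rat 2 and 14 without ethanol rat 5.

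Of the ligands, 21 of 25 were tested and 1 passed. Bmp2 rose in withdrawal, being 2.49 ± 0.946 CPM in control rats and 3.97 ± 2.13 CPM in withdrawal rats (change of 0.49 on the log2 scale, SE 0.14, limma-voom q = 0.079), with an exact permutation p of 0.134 over the rats. Its rats overlapped, withdrawal rats 1 and 5 stood at 7.55 and 5.62 CPM, and without withdrawal rat 1 q was 0.223. In both other comparisons 0 ligands passed in limma-voom, 3 and 4 were at an unadjusted p under 0.05, edgeR called 0 and 0, and DESeq2 called 1 and 2. The highest ligand per length was Gdf11, a ligand of the activin branch, at 60.6 ± 7.25 CPM in control.

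Of the receptors and co-receptors, 12 of 13 were tested and Eng alone passed. Eng encodes endoglin, a co-receptor of endothelial cells for BMP9 and BMP10. It was 21.8 ± 2.44 CPM in control, 27.9 ± 1.56 CPM in ethanol and 27.3 ± 4.29 CPM in withdrawal. All 6 ethanol rats (25.6 to 29.6 CPM) lay above all control rats (19.1 to 24.8 CPM). It rose in ethanol (by 0.36 on the log2 scale, SE 0.07, limma-voom q = 0.0737; exact permutation p = 0.00216, the smallest that 6 against 6 rats allow) and in withdrawal (0.34, SE 0.07, q = 0.0222; exact permutation p = 0.0216). Between withdrawal and ethanol 0 receptors passed in limma-voom, 2 were at an unadjusted p under 0.05, edgeR called 0 and DESeq2 called 1. Eng followed the endothelial marker level from rat to rat (r = 0.80, n = 18, treatment means removed), as did Bmp2 (r = 0.81). The part of endothelial content in either was not tested. Rgmb, a co-receptor of neurons, had the highest mean of the list per length in control, at 18.1 CPM per kb, which did not differ beyond its spread from Neo1 at 17.9 CPM per kb.

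Extracellular inhibitors such as noggin and chordin did not pass in any comparison. Of the 18 tested of 21, 0 passed by limma-voom in each of the 3 comparisons, with 1, 4 and 5 at an unadjusted p under 0.05, 0 by edgeR in each and 0, 1 and 2 by DESeq2. Nbl1 was the highest per length, at 85.4 ± 7.58 CPM in control. Of the 22 other Smads and intracellular regulators, all tested, Ctdsp1 and Lemd3 rose in withdrawal vs control. Ctdsp1, a phosphatase that removes phosphates from SMAD1, averaged 48.8 ± 2.02 CPM in control and 54.8 ± 4.68 CPM in withdrawal (limma-voom log2 difference 0.20, SE 0.04, q = 0.0259; exact permutation p = 0.00433). In ethanol it was 57.1 ± 3.99 CPM, with all 6 rats above all control rats but q = 0.136. Ctdsp1 had r = 0.68 with the choroid plexus markers (n = 18). Lemd3, an inner nuclear membrane protein that binds receptor-activated SMADs, went from 30.9 ± 1.71 to 34.8 ± 1.99 CPM (0.15, SE 0.04, q = 0.0694; exact permutation p = 0.00649), with q = 0.158 without withdrawal rat 1. The other comparisons had 0 in this list by limma-voom, 3 and 8 at an unadjusted p under 0.05, 0 and 0 by edgeR, and 2 and 2 by DESeq2. Fkbp1a, which binds type I receptors, was the highest of the list per length, at 682 ± 76.3 CPM in control.

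Of 18 other BMP target genes 17 were tested. Msx1, a homeobox gene, passed in ethanol vs control (0.45 on the log2 scale, SE 0.08, limma-voom q = 0.0495; exact permutation p = 0.0152) and fell in withdrawal vs ethanol (-0.33, SE 0.08, q = 0.0732; exact permutation p = 0.0541). It was 20.7 ± 3.73, 38.7 ± 14.4 and 21.5 ± 14.6 CPM in control, ethanol and withdrawal. From rat to rat it followed the choroid plexus markers (r = 0.94, n = 18, treatment means removed), with 55.9, 53.5 and 44.2 CPM in the 3 ethanol rats highest in those markers and 8.24 and 6.02 CPM in withdrawal rats 4 and 5. With the choroid plexus level in the model its fold change was 0.39 (q = 0.0786) for ethanol vs control and -0.14 (q = 0.423) for withdrawal vs ethanol. Over all settings other than leaving out single rats it ran from 0.38 to 0.84 and from -1.04 to -0.12 on the log2 scale. In withdrawal vs control Tmem100, Cdkn1a and Sox9 rose. Tmem100, an endothelial membrane protein, went from 20.4 ± 2.09 to 27.4 ± 8.21 CPM (q = 0.0945; exact permutation p = 0.0238), with withdrawal rat 1 at 43.1 CPM and q = 0.192 without it. Cdkn1a, the cell cycle inhibitor p21, went from 13.9 ± 2.51 to 20.1 ± 8.34 CPM (q = 0.086; exact permutation p = 0.11), and Sox9, a glial transcription factor, from 23.5 ± 4.10 to 29.4 ± 6.20 CPM (q = 0.0979; exact permutation p = 0.0866). Without withdrawal rat 1 q was 0.158 for Cdkn1a and 0.166 for Sox9. Without withdrawal rats 4 and 5 the log2 difference of Cdkn1a was 0.27 (q = 0.501) against 0.57 with all rats. With a single rat removed at a time, Cdkn1a passed in 9, Tmem100 in 5 and Sox9 in 4 of 18 models. Tmem100 had r = 0.57 with the endothelial markers (n = 18, treatment means removed). The highest mean of the list per length was that of Junb, at 14.5 CPM per kb in control, which did not differ beyond its spread from Hey1 at 12.5 CPM per kb.

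The bHLH factors that ID proteins restrain were all 13 tested. Olig1 rose in ethanol, from 114 ± 6.08 to 137 ± 11.7 CPM, with all 6 ethanol rats above all control rats (limma-voom log2 difference 0.22, SE 0.05, q = 0.0809; exact permutation p = 0.00216). With the choroid plexus level in the model q was 0.101, and it passed in 9 of 18 models with a single rat removed. Olig2, its partner in the oligodendrocyte lineage, rose in withdrawal, to 45.7 ± 3.22 CPM from 37.7 ± 2.74 CPM in control (0.28, SE 0.06, q = 0.024; exact permutation p = 0.00216) and from 40.8 ± 6.73 CPM in ethanol (0.31, SE 0.06, q = 0.0472; exact permutation p = 0.132). The withdrawal rats of Olig2 lay above all control rats and overlapped the ethanol rats. Over 14 settings other than leaving out single rats, its log2 difference from ethanol ran from 0.18 to 0.35 and passed in 8. Without withdrawal rats 4 and 5 that difference had q = 0.125. Nhlh1, a factor of young neurons, fell in withdrawal vs control with the largest change of all 115 genes in that comparison, being 9.48 ± 1.63 CPM in control and 2.55 ± 1.73 CPM in withdrawal (limma-voom log2 difference -1.96, SE 0.35, q = 0.0195; exact permutation p = 0.00216). All 6 withdrawal rats (0.488 to 5.64 CPM) lay below all control rats (7.96 to 11.9 CPM), and the ethanol rats averaged 4.89 ± 1.83 CPM, also below all control rats but with q = 0.214. Nhlh2 also passed as lower in withdrawal (-0.35, SE 0.11, q = 0.0968; exact permutation p = 0.225), at 5.30 ± 1.90 CPM against 7.004 ± 2.41 CPM, and with the choroid plexus level in the model q was 0.238. It passed in 2 of 18 models with a single rat removed, and without withdrawal rats 4 and 5 its log2 difference was -0.20 (q = 0.669). Nhlh2 had r = 0.66 with the endothelial markers (n = 18, treatment means removed). Neurod6 was the highest of the list per length, at 225 ± 42.4 CPM in control.

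**Figure D5:**
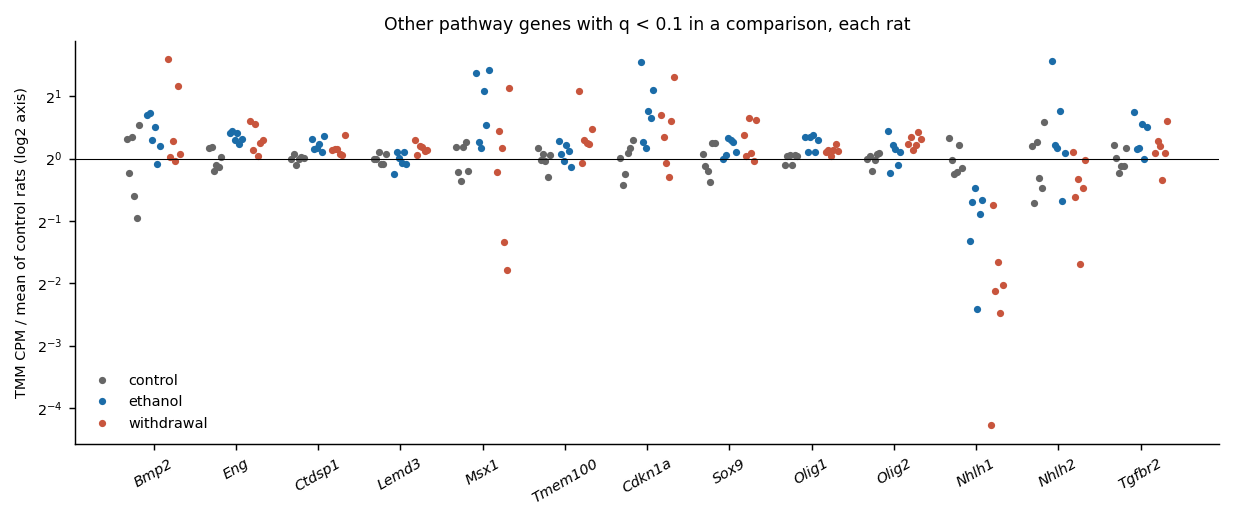
CPM of the 13 other pathway genes that passed q < 0.1 in a comparison, divided by the mean of the 6 control rats (log2 axis), each point 1 rat and each color a group. Olig1 and Eng lie above all control rats in ethanol, Olig2 lies above them in withdrawal, and Nhlh1 lies below them in withdrawal.

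In the TGF-beta branch 12 of 13 genes were tested and Tgfbr2, the type II receptor for TGF-beta, rose in withdrawal vs control, at 41.0 ± 8.62 CPM against 36.2 ± 4.50 CPM (limma-voom log2 difference 0.26, SE 0.06, q = 0.0376; exact permutation p = 0.305). In ethanol it was 47.0 ± 9.49 CPM. From rat to rat it had r = 0.70 with the choroid plexus markers (n = 18), and with their level in the model q was 0.0283. Without surrogate variables the log2 difference was 0.17 (q = 0.699), and without withdrawal rats 4 and 5 it was 0.36 (q = 0.153). The other comparisons had 0 in this list by limma-voom, 1 and 1 at an unadjusted p under 0.05, and 0 and 0 by both edgeR and DESeq2. Acvr1b, a type I receptor for activins, was the highest of the list per length, at 62.8 ± 4.14 CPM in control.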

How the data were processed

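Libraries of poly(A) RNA were made by strand from dorsal hippocampi of 18 rats and read from both ends over 100 nt. The authors aligned them with STAR 2.5.2a to Rnor_6.0 (annotation 106) and then deposited gene counts made with featureCounts 1.5.0, which are raw, by strand and without multi-mapping pairs. Groups and replicate numbers were taken from the labels. Gene names for 29322 of 38445 identifiers came from the GRCr8 table, and 9123 had no match. TMM factors were from edgeR 4.0.16. The 17853 genes that exceeded 0.5 CPM in 1 rat or more were fitted in 1 model of all rats with 3 surrogate variables (sva 3.50.0, log2 CPM with a prior count of 2) by limma 3.58.1 (voom, lmFit, eBayes; R 4.3.3), with Benjamini-Hochberg adjustment within each comparison and q < 0.1. The paper's methods give neither the number of surrogate variables nor that of rats in the filter. Single genes were compared by two-sided exact permutation over 924 splits of mean log2 CPM. The members, the lists of other genes and the rule for named genes (all members, pathway genes with q < 0.1, the highest per length in each list, the 3 genes most like each member) were chosen with earlier results of these data known. Each rat is a separate animal. The scripts were tested on simulated data with 200 changed genes. Alternatives were other tests (DESeq2 1.42.0), scalings, filters and covariates. Tables and plots were made in Python 3.11.15 with pandas 2.3.3, matplotlib 3.10.9, scipy 1.17.1 and numpy 2.4.6.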

Additional observations from a re-analysis of the deposited data

Results flagged for a closer look

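In 66 groups of 6 rats (9 members and 13 other pathway genes in 3 groups) the highest and the lowest rat were compared with the others by Dixon's criterion at 95%, which chance meets in about 1 of 20 groups. A rat stood apart in 3 of them. Smad7 was at 73.6 CPM in withdrawal rat 1, where the other 5 withdrawal rats reached 38.6 CPM. Tmem100 was at 43.1 CPM in the same rat, where the next was at 28.3 CPM. Ctdsp1 was at 63.7 CPM in withdrawal rat 6, where the next was at 54.4 CPM.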

How the results depend on the processing

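The count of other pathway genes that passed depended on the processing. For ethanol vs control (3 genes) it was 1 at q < 0.05, 1 without surrogate variables, 1 with 2 of them, 8 with DESeq2, 0 without a filter on low counts and 0 in a model of only the 2 groups, and leaving out each rat gave 0 to 6. For withdrawal vs control (11 genes) the same settings gave 5, 1, 6, 19, 5 and, in place of the last, 7 with 5 surrogate variables, and leaving out each rat gave 0 to 15. For withdrawal vs ethanol (2 genes) it was 1 at q < 0.05, 4 without surrogate variables, 0 with 2, 5 with 5, 9 with DESeq2, 1 without the filter, 0 in a model of only the 2 groups and 0 with the index set as a term, and leaving out each rat gave 0 to 14. Settings chosen after seeing the data were TMM factors from all genes, the choroid plexus level as a term (1 for withdrawal vs ethanol) and leaving out withdrawal rats 4 and 5 (0 for withdrawal vs control, 0 for withdrawal vs ethanol). The cause of these changes was not tested. Rats with the same replicate number are different animals, and 3, 0 and 1 of 6 same-numbered pairs had a correlation above 0.1 in the 3 comparisons. In ethanol vs control the median was 0.107 for same-numbered pairs and -0.050 for other pairs. The paper states that rats were pair fed, and 6 pairs are too few to tell whether the numbers follow that pairing. With the replicate number as a block the counts were 2, 13 and 0, and 0 members were under the threshold in each comparison. No fold change of a called pathway gene changed sign in any setting, but q passed the threshold in 314 and missed it in 184 of 498 gene and setting combinations. Of the 378 alternative values for a difference of mean log2 CPM of a member, all moved by less than the SD between rats. Of 846 alternative fold changes of members, 5 moved by more, which were Smad7 for ethanol vs control (-0.01 both with 5 surrogate variables and without withdrawal rats 4 and 5, 0.22 without ethanol rat 2) and Id2 for withdrawal vs control (0.15 in the first 2 of these settings). Id1 for withdrawal vs control turned to -0.04 with 5 surrogate variables and to -0.02 without withdrawal rats 4 and 5. Smad6 levels rest on at most 169 read pairs per rat, and Smad9 was below what this depth resolves.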

Other observations

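The genes most like the remaining members over the 18 rats, with treatment means removed, were Hmga1, Gli1 and Nfkb1 for Smad1 (r = 0.89, 0.87 and 0.87), Btaf1, Man1b1 and Pum2 for Smad5 (0.90, 0.89 and 0.89), Cd53, Abcb4 and Lrp4 for Id2 (0.78 for each), Isca2, Septin6 and Zdhhc22 for Id4 (0.94, 0.92 and 0.92) and Lrrcc1, Rab27b and Ipmk for Bmpr2 (0.87, 0.84 and 0.82). Gli1, the target of Hedgehog signaling, was at 15.2 CPM in withdrawal rat 1 and between 2.41 and 11.6 CPM in the other 17 rats, and Hmga1 was at 107 CPM against 44.9 to 77.8 CPM. That is the rat in which Smad7, Smad1 and Smad5 were each at the highest level of the 18, at 73.6, 33.6 and 82.7 CPM.

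Marker lists of other cell types were read beside the members. Of 10 astrocyte markers, Gfap rose and Aldh1l1 and Gja1 fell in withdrawal vs control, and of 10 microglial markers C1qb and C1qc rose (q < 0.1 by limma-voom). Of 7 markers of oligodendrocyte precursors, Pdgfra and Gpr17 passed in the same comparison, 1 rising and 1 falling. Pdgfrb, of 10 pericyte and smooth muscle markers, rose and Prox1, of 10 neuronal markers, fell. In withdrawal vs ethanol, where Id1 and Id3 were lower, Gfap, C1qb, the pericyte marker Abcc9 and the neuronal marker Gad2 rose. The oligodendrocyte, fibroblast and thalamic lists had 0 by limma-voom in each of the 3 comparisons, with at most 3, 2 and 4 at an unadjusted p under 0.05, at most 0, 1 and 1 by edgeR and at most 1, 1 and 2 by DESeq2.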
